A study of Mus musculus with 10 samples.

Results

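Acetate was compared with no acetate in mouse CD8 T cells held in low glucose up to the day labelled d9, with all 13182 expressed genes tested out of 53465 in the files. The 6 libraries titled d9 were taken by their labels, out of 10 in the series. CD8 T cells are the lymphocytes that kill infected and tumour cells. These came from spleen and peripheral lymph nodes of OT-I mice on the C57BL/6 background, whose transgenic T cell receptor recognises an ovalbumin peptide. All groups were activated with that peptide and recombinant human interleukin-2 at 100 U/ml in 25 mM glucose for 3 days. Both d9 groups then spent 5 days in 1 mM glucose and then received PMA, a phorbol ester, with ionomycin for 4 h, stimuli that bypass the receptor, before polyadenylated RNA was sequenced. The d9_1mM group (n = 3) had 1 mM glucose alone. The d9_Acetate group (n = 3) also had 5 mM sodium acetate for the last 1 day. The series further holds the same pair of groups after 1 day of restriction, labelled d5 (n = 2 each). The stated 3 and 5 days do not add up to the labelled day 9, and the labels do not explain this. The cells share a transgenic receptor and the stimulus in culture was strong, which limits the groups as a model of tumour or tissue. Whether the replicates come from different cultures or mice is not stated in the labels, and the p-values therefore cover only the spread among these libraries, which may be technical.

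Activated CD8 T cells use glucose for energy and as a carbon source for acetyl-CoA, the donor of acetyl groups for histones and of carbon for lipids. Acetate is an alternative source: it enters cells through monocarboxylate transporters such as that encoded by Slc16a1, and is turned into acetyl-CoA by the synthetases Acss2, in cytosol and nucleus, and Acss1, in mitochondria. Restimulated CD8 T cells are known for cytokines (interferon gamma, TNF, interleukin-2, GM-CSF), chemokines and the granule proteins that kill target cells, and low glucose is known to reduce several of them.

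The d9 libraries held 22.97 to 24.66 M counts. Values are CPM, counts scaled to a common library size with TMM factors, given for replicates 1, 2 and 3 in that order or as mean ± SD (n = 3 per group). Changes are log2 fold changes ± SE, acetate against none, and adjusted p is the Benjamini-Hochberg value over all tested genes from the edgeR quasi-likelihood test. Replicates differed by more than counting noise, with a chi-square per degree of freedom of 6.01 to 76.6 between pairs at d9. A pair of libraries, d9_1mM replicate 1 and d9_Acetate replicate 2, lay apart from the other 4 on the first principal component of the d9 libraries (36.4% of variance). Transcripts of cytosolic ribosomal proteins took up 15.6% and 15.3% of their counts, compared with 11.3 to 12.8% elsewhere at d9. The second component (27.8%) placed all acetate libraries on 1 side and all libraries without acetate on the other.

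The CD8 label held in every d9 library. The 7 CD8 T cell markers summed to 2500 to 2550 CPM without acetate and 2410 to 2680 CPM with it. Sums of markers are CPM scaled to library size alone. Of the markers of other lineages, many were under 1 CPM in every d9 library: 6 of 8 for B cells (Ms4a1 at 0 counts in all 6 libraries), 4 of 8 for NK cells (Klra4, Klra8 and Klra9 at 0), 6 of 8 for monocytes and macrophages (Lyz2 at 0), 4 of 8 for dendritic cells (Clec9a and Siglech at 0), 6 of 8 for granulocytes and mast cells (Camp, Mpo, S100a8 and S100a9 at 0) and 7 of 8 for erythroid and endothelial cells (6 at 0, Hbb-bs and Cdh5 among them). Single members were well above that level: Gzma, also a CD8 T cell gene, made up most of the NK cell sum (1860 to 2890 CPM without and 2170 to 2770 CPM with acetate). Klrb1c, in the same list, averaged 10.9 ± 2.36 CPM without acetate and 20.9 ± 4.28 CPM with it (0.94 ± 0.20, adjusted p = 0.0991). It was the only 1 of the 4 tested NK cell markers with separate groups. Likewise Ighm averaged 88.4 ± 11.6 CPM without acetate and 106 ± 18.5 CPM with it in the B cell list, Kit 82.0 ± 25.3 CPM without acetate and 110.4 ± 35.3 CPM with it in the mast cell list and Zbtb46 65.9 ± 2.25 CPM without acetate and 84.6 ± 15.3 CPM with it in the dendritic cell list. The erythroid and endothelial sum was 28.4 to 36.1 CPM without acetate and 46.3 to 50.5 CPM with it, separate between groups, and was nearly all Pecam1 (33.9 ± 4.21 CPM without acetate and 49.96 ± 3.76 CPM with it), an adhesion molecule that T cells can also express. The monocyte and macrophage sum was 8.24 to 12 CPM without acetate and 6.45 to 7.61 CPM with it, also separate. The part of other cell types in the results was not tested. The CD4 T cell list summed to 170 to 236 CPM without acetate and 232 to 346 CPM with it. Within it, Cd4 averaged 1.31 ± 0.339 CPM without acetate and 0.769 ± 0.0762 CPM with it, separate and lower, and Foxp3 was under 1 CPM in both groups. Cd40lg averaged 2.54 ± 1.28 CPM without acetate and 5.57 ± 1.53 CPM with it, separate and higher. Most of the sum was Ctla4 and Zbtb7b, which CD8 T cells also express.

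With acetate, 4 genes rose and 0 fell at an adjusted p under 0.05 (0.0303% of the genes tested). They were Il10, Csf2 and the long intergenic noncoding RNA genes Gm36723 and Gm17767. Bulk RNA cannot tell more RNA per cell from more cells of a type. Il10 encodes interleukin-10, a cytokine best known for damping inflammation and also made by effector CD8 T cells. Its values were 31.1, 23.1 and 22.05 CPM without acetate and 82.2, 117 and 86.0 CPM with it. The groups did not overlap, and the lowest acetate library was well above the highest library without it. The change was 1.90 ± 0.17 (adjusted p = 0.00473). Csf2 encodes GM-CSF, a growth factor for myeloid cells. It stood at 123, 135 and 123 CPM without acetate and 306, 311 and 261 CPM with it, in 2 tight groups, a change of 1.202 ± 0.12 (adjusted p = 0.00473).

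Both noncoding genes were expressed at a lower level. Gm36723 stood at 9.53, 9.52 and 8.61 CPM without acetate and 21.5, 21.9 and 17.98 CPM with it, with little spread in either group (1.15 ± 0.14, adjusted p = 0.0242). Gm17767 stood at 7.97, 7.53 and 6.70 CPM without acetate and 19.5, 15.8 and 25.3 CPM with it, and here the acetate libraries differed more among themselves (1.45 ± 0.18, adjusted p = 0.0242). Some of these calls depended on single libraries. Without d9_1mM replicate 3, none passed: the adjusted p was 0.0601 for Il10, 0.0717 for Csf2 and 0.256 for Gm17767 and Gm36723, with log2 changes of 1.81, 1.18, 1.38 and 1.10. Il10 and Csf2 passed without any one of the other 5 d9 libraries. Both noncoding genes missed the threshold without d9_1mM replicate 2 (adjusted p = 0.191) or d9_Acetate replicate 1 (0.0512), Gm36723 without d9_Acetate replicate 2 (0.0598) and Gm17767 without d9_Acetate replicate 3 (0.0618). With the d9 libraries fitted alone, Il10 and Csf2 passed (edgeR adjusted p = 0.0366) and the noncoding genes did not (0.102 and 0.105).

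**Figure D1:**
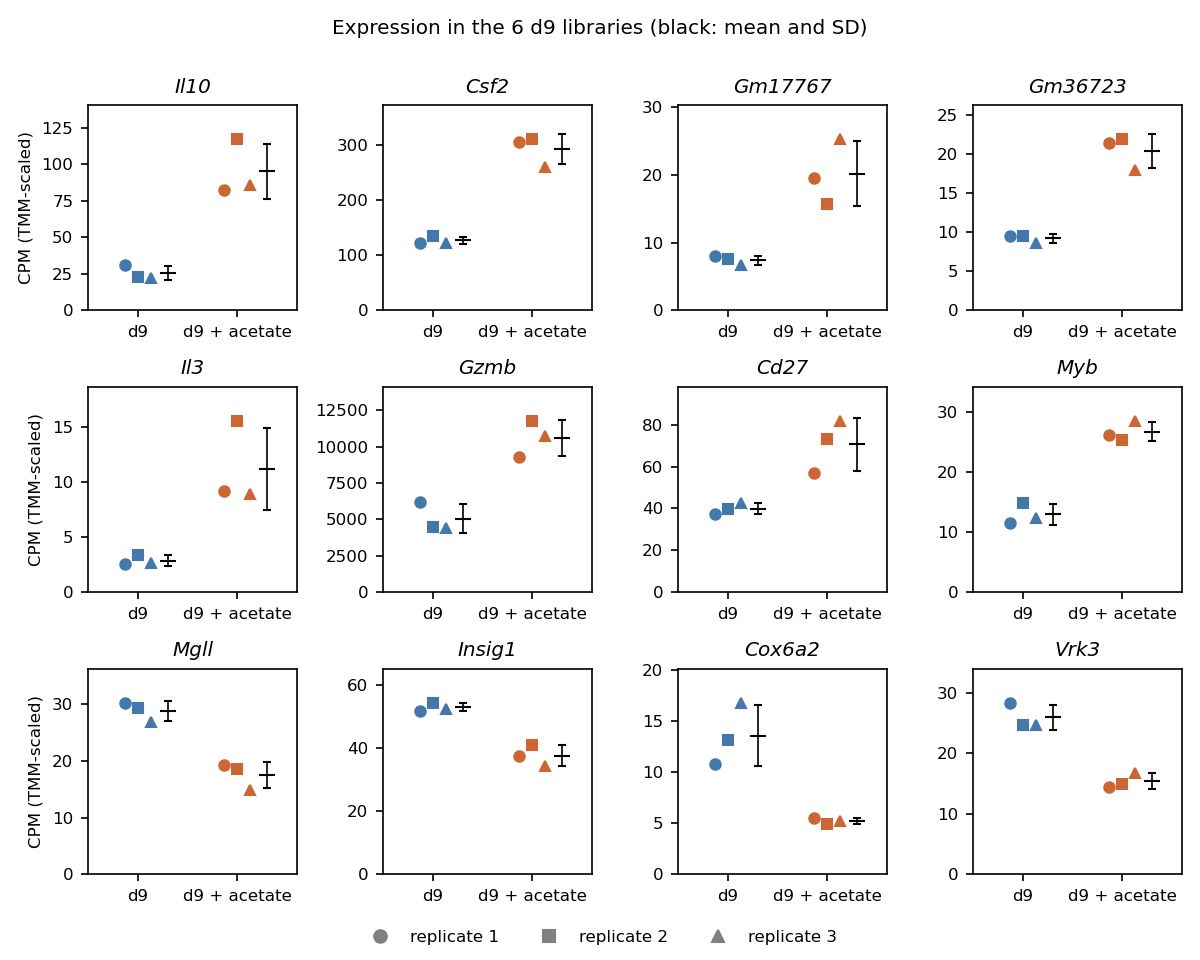
CPM (TMM-scaled, axes from 0) of 12 genes in each d9 library, with replicates 1 to 3 as circles, squares and triangles, libraries without acetate in blue and with acetate in orange, and the mean and SD in black. Il10, Csf2, Gm17767 and Gm36723 passed the test. The other 8 did not, although their groups do not overlap.

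The 4 genes lie at 4 places in the genome (GENCODE M21 on GRCm38): Il10 at chr1:131019845-131024974 on the forward strand, Csf2 at chr11:54247271-54249667 on the reverse strand, Gm36723 at chr12:25303940-25471979 on the forward strand and Gm17767 at chr1:51507086-51596718 on the reverse strand. Csf2 is overlapped by the antisense gene Gm12223, which held 4 counts over the 6 d9 libraries. Within 200 kb of Csf2 lies Il3, 15.6 kb away, the gene of a second cytokine acting on myeloid cells, at 2.55, 3.43 and 2.65 CPM without acetate and 9.23, 15.6 and 8.95 CPM with it. Its groups were far apart (1.96 ± 0.30, adjusted p = 0.0674). Acsl6, a long-chain acyl-CoA synthetase 54.1 kb from Csf2, averaged 0.421 ± 0.028 CPM without acetate and 1.40 ± 0.22 CPM with it (1.72 ± 0.32, adjusted p = 0.0833). Further out on that side Fnip1, at 188.5 kb, had a log2 change of 0.01 ± 0.22. On the other side P4ha2, a prolyl hydroxylase subunit gene at 115.6 kb, averaged 18.9 ± 7.41 CPM without acetate and 37.0 ± 15.7 CPM with it (0.97 ± 0.40, adjusted p = 0.286), in overlapping groups. Near Il10, the interleukin gene Il24 at 132.4 kb averaged 1.17 ± 0.166 CPM without acetate and 3.15 ± 0.356 CPM with it (1.42 ± 0.29, adjusted p = 0.105), while the kinase gene Mapkapk2, only 28.7 kb away, differed by 0.02 ± 0.14. Nabp1, a single-stranded DNA binding protein gene 28.7 kb from Gm17767, averaged 64.5 ± 16.0 CPM without acetate and 107.7 ± 3.5 CPM with it (0.74 ± 0.15, adjusted p = 0.0991), in groups that did not overlap. No neighbour passed the test.

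The promoter windows of 4 of these genes are shown because the genes form neighbouring pairs, Csf2 with Il3 and Gm17767 with Nabp1, whose members were all higher with acetate. Each runs from 250 bases before to 50 after the RefSeq start site (GRCm38.p6, reverse strand, read 5′ to 3′). A script searched both strands for the core letters of 3 factors that PMA and ionomycin activate: GGAAAA for NFAT, TGANTCA for AP-1 and, for NF-kB, GGG followed by any 2 bases and TTTCC. Capitals mark a match.
Csf2 (chr11:54249850-54250149): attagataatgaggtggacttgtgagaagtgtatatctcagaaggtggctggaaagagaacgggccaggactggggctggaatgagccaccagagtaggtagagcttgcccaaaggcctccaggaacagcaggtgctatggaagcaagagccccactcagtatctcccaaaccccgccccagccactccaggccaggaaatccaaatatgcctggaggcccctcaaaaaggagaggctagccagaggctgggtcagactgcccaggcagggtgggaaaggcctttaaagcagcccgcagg
Il3 (chr11:54267230-54267529): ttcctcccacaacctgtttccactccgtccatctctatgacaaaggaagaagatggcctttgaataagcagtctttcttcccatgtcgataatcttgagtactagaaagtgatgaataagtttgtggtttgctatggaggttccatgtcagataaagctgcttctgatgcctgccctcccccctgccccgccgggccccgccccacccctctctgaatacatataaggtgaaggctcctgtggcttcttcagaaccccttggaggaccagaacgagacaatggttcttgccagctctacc
Gm17767 (chr1:51596669-51596968): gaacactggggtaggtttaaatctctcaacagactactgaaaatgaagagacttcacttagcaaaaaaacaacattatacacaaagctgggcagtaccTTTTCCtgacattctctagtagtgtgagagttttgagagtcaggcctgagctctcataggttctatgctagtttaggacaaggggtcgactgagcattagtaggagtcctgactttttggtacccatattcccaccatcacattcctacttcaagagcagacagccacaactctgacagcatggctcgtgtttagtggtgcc
Nabp1 (chr1:51478350-51478649): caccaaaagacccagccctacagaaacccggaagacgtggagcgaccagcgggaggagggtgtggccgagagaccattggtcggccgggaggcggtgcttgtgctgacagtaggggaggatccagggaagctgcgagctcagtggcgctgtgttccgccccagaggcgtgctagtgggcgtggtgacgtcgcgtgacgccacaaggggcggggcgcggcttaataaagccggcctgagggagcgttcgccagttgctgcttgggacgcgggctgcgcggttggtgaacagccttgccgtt

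The only match was in Gm17767, an NFAT core at -152 to -147 from the start site, with GGAAAA on the strand opposite to the one printed. The same search covered 32851 RefSeq promoter windows of full length, which leave out a chromosome. Of these, 23.4% held the NFAT letters, 7.81% those of AP-1 and 1.63% those of NF-kB, so a window without a match is common. The RefSeq window of Csf2 lies upstream of the GENCODE start at 54249667, so the 2 annotations place its start at different bases. The bases between that window and the GENCODE start were not searched, so the lack of a match for Csf2 does not cover them.

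At an adjusted p under 0.1 there were 81 genes, the 4 included (0.614%), 57 higher (0.432%) and 24 lower (0.182%), and in each of the 81 the groups did not overlap. Among all genes, 2026 had an unadjusted p under 0.05 (15.4%), 1078 of them higher (8.18%) and 948 lower (7.19%), and 51% of all tested genes had a positive log2 change. Of the higher ones, Gzmb, the main cytotoxic protease of CD8 T cell granules, stood at 6189.7, 4496 and 4432 CPM without acetate and 9309, 11755 and 10763 CPM with it (1.07 ± 0.16, adjusted p = 0.0674). It is among the most abundant of the genes named here. Its paralog Gzmc stood at 903, 600.4 and 793 CPM without acetate and 1488, 1894 and 2049 CPM with it (1.24 ± 0.21). Granzymes are similar in sequence, so reads may be shared between them. Cd27, a costimulatory receptor of the TNF receptor family that supports survival, stood at 37.3, 39.7 and 42.7 CPM without acetate and 56.7, 73.3 and 81.6 CPM with it (0.82 ± 0.14, adjusted p = 0.0759). Myb, a transcription factor tied to self-renewal of memory cells, stood at 11.6, 14.9 and 12.4 CPM without acetate and 26.2, 25.5 and 28.5 CPM with it (1.04 ± 0.18, adjusted p = 0.0759). For both, each acetate library lay above every library without it.

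The other higher genes had varied roles. Lrrc32 encodes GARP, which holds latent TGF-beta at the cell surface, and stood at 27.6, 31.3 and 27.4 CPM without acetate and 54.2, 51.4 and 86.4 CPM with it (1.15 ± 0.19), with acetate replicate 3 the highest. Ccl9, a chemokine, averaged 17.7 ± 1.67 CPM without acetate and 39.9 ± 8.80 CPM with it (1.17 ± 0.19). Lgalsl, a galectin-like gene, averaged 6.39 ± 0.562 CPM without acetate and 12.8 ± 1.25 CPM with it (1.00 ± 0.14). The RNA binding protein gene Hnrnpdl averaged 74.5 ± 3.57 CPM without acetate and 118 ± 8.12 CPM with it (0.67 ± 0.10) and Cacybp, a calcyclin binding protein gene, 25.0 ± 1.95 CPM without acetate and 40.2 ± 2.25 CPM with it (0.69 ± 0.10). Among protein-coding genes with separate groups, large positive changes also came from Lif, a cytokine of the interleukin-6 family (46.3, 44.4 and 36.5 CPM without acetate and 103, 111 and 113 CPM with it), and Tbkbp1, which binds the kinase TBK1 (1.36 ± 0.26). Lif was tightly grouped but not past the test (1.36 ± 0.37, adjusted p = 0.158). Fosl2, an AP-1 subunit, and Nr4a1, an early gene of receptor signalling, had larger means carried by 1 library: Fosl2 stood at 90.2, 89.2 and 69.2 CPM without acetate and 121, 151 and 432 CPM with it and Nr4a1 at 89.6, 142 and 131 CPM without acetate and 179, 263 and 780.2 CPM with it. Without d9_Acetate replicate 3 their log2 changes were 0.72 and 0.87, against 1.505 and 1.76 with it.

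None of the genes lower with acetate passed the test. Vrk3, a gene of the vaccinia-related kinase family that overlaps Zfp473 on the other strand, stood at 28.3, 24.7 and 24.7 CPM without acetate and 14.3, 15.0 and 16.8 CPM with it (-0.75 ± 0.12, adjusted p = 0.0706). Cox6a2, the muscle-type isoform of a cytochrome c oxidase subunit, stood at 10.8, 13.2 and 16.8 CPM without acetate and 5.48, 4.94 and 5.24 CPM with it (-1.38 ± 0.22, adjusted p = 0.0712). Its acetate libraries were nearly alike and lay well under the others. Tspoap1 stood at 17.4, 14.5 and 13.7 CPM without acetate and 7.37, 4.49 and 4.47 CPM with it (-1.48 ± 0.24). Mgll, the monoacylglycerol lipase that releases fatty acids from stored lipid, stood at 30.3, 29.4 and 26.9 CPM without acetate and 19.3, 18.5 and 14.9 CPM with it (-0.72 ± 0.13, adjusted p = 0.0833). Map1lc3a, an LC3 protein of autophagosome membranes, averaged 11.4 ± 0.244 CPM without acetate and 6.78 ± 0.341 CPM with it (-0.75 ± 0.14). Epcam, an adhesion molecule, averaged 12.5 ± 1.42 CPM without acetate and 7.18 ± 0.192 CPM with it (-0.80 ± 0.14), and Qsox1, a sulfhydryl oxidase of the secretory pathway, 50.9 ± 2.25 CPM without acetate and 35.1 ± 1.86 CPM with it (-0.53 ± 0.10). The remaining lower genes of smallest p were Cdk2ap2, Ano10, Try5, Inpp5k and Cspg5, with log2 changes of -0.68, -0.57, -1.92, -0.56 and -0.92. Try5 belongs to a family of near-identical trypsin genes, so its counts are uncertain.

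**Figure D2:**
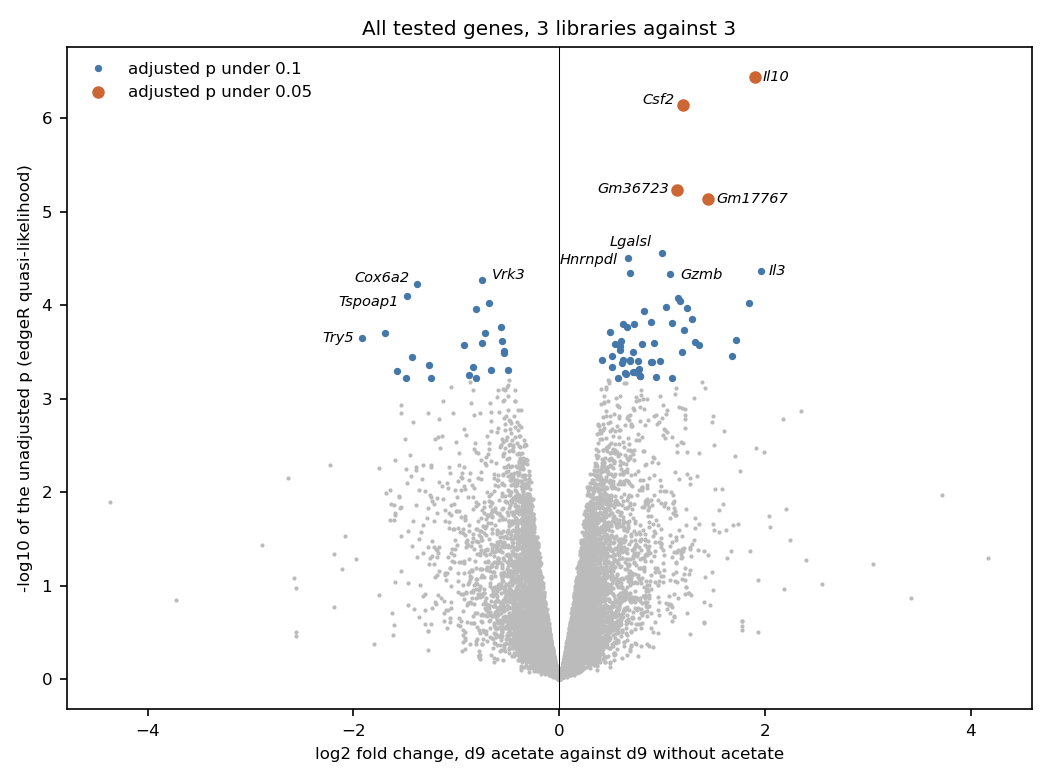
Log2 fold change with acetate at d9 (x) against -log10 of the unadjusted edgeR p (y) for all 13182 tested genes. Orange points are the 4 genes with an adjusted p under 0.05, all on the right, and blue points the others under 0.1.

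The number of genes called depended on how the pair of libraries that stood apart was treated, and also on the test, the filter and single libraries outside the pair. Across genes, the deviation of a library from its group mean was correlated with transcript length at a Spearman rho of -0.40 in d9_1mM replicate 1 and -0.56 in d9_Acetate replicate 2, against 0.205 to 0.483 in the other 4 (10197 genes, which are not independent). Without both libraries, 213 genes passed (1.65%), 153 higher (1.18%) and 60 lower (0.464%). With the ribosomal protein share as a covariate, 953 passed (7.23%), 442 higher (3.35%) and 511 lower (3.88%). With 1 surrogate variable, 1214 passed (9.21%), 611 higher (4.64%) and 603 lower (4.57%). The DESeq2 Wald test on all libraries called 335 (2.88%), 229 higher (1.97%) and 106 lower (0.91%). Removing trends with length and GC gave 79 (0.599%), 62 higher (0.47%) and 17 lower (0.129%), and testing without a filter on low counts gave 197 of 23195 (0.849%), 132 higher (0.569%) and 65 lower (0.28%). All 197 were among the 13182 genes of the filtered test, and 0 were among the genes added by dropping the filter. All 3 fits that deal with the pair called 177 genes, 121 higher and 56 lower, and each of those genes had 1 direction in all 3. These fits are the one without both libraries and those with the ribosomal protein share or the surrogate variable. Both covariates were taken over all 10 libraries, and whether the surrogate variable follows the pair was not tested. The 3 fits share libraries, so their overlap is not independent support for a gene or its direction. Il10, Csf2, Gm36723 and Gm17767 passed in each of these fits. The covariate was chosen with these libraries in view, so its calls are given beside the list counts and not in their place. The part of library composition in the result was not tested.

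**Figure D3:**
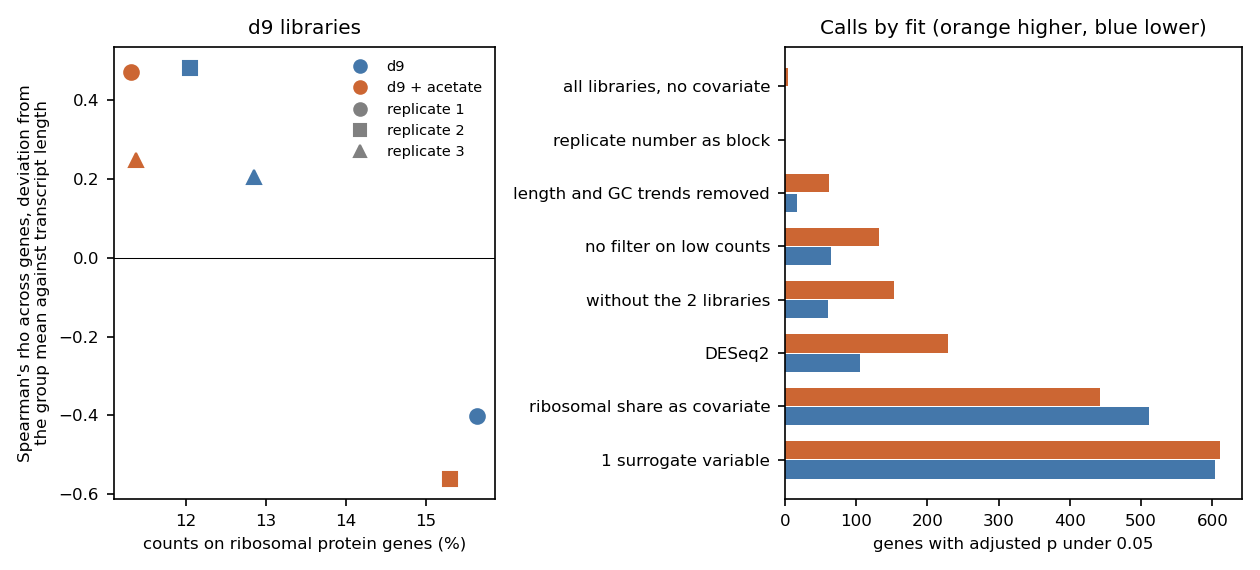
Left: for each d9 library, the percent of counts on ribosomal protein genes (x) against Spearman's rho across genes between its deviation from the group mean and transcript length (y); d9_1mM replicate 1 and d9_Acetate replicate 2 lie apart at lower right. Right: genes with an adjusted p under 0.05, higher in orange and lower in blue, from 4 higher in the fit with all libraries and no covariate to 611 higher and 603 lower with 1 surrogate variable.

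Effector cytokine genes leaned higher as a group. Of 27 on the list 22 were tested, with a median log2 change of 0.63 against 0.01 over all tested genes. Il10 and Csf2 passed, and 13 members had non-overlapping groups with acetate higher, against 9.9% of all genes, and 0 with acetate lower (8.79%). Ifng, encoding interferon gamma, stood at 544, 553 and 576 CPM without acetate and 951, 1046 and 767 CPM with it (0.72 ± 0.13, adjusted p = 0.0833); it overlaps Gm49751 on the same strand. Tnf stood at 414, 421 and 442 CPM without acetate and 631, 785 and 580.1 CPM with it (0.64 ± 0.13), with 1 acetate library above the other two. For Il2, whose product drives T cell proliferation, the values were 35.4, 23.1 and 31.9 CPM without acetate and 58.0, 86.9 and 61.8 CPM with it (1.19 ± 0.23). Lta, encoding lymphotoxin alpha, averaged 192 ± 17.3 CPM without acetate and 274 ± 15.9 CPM with it (0.52 ± 0.10) and Tnfsf14, encoding the TNF family ligand LIGHT, 163 ± 14.3 CPM without acetate and 279.6 ± 60.7 CPM with it (0.78 ± 0.16). Members with overlapping groups included Ltb (0.04), Il16 (-0.05) and Tgfb1 (-0.36), so the list did not move as a block. Csf2, Ifng, Il10, Lta, Tnf and Tnfsf14 passed higher in all 3 fits that deal with the pair of libraries (6 of 22, against 121 of all 13182 genes). With the ribosomal share as covariate 1 member passed lower (3.88% of all genes), and likewise 1 with the surrogate variable (4.57%). The list was written with earlier results of these data known.

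Of 17 chemokine genes 10 were tested (median 0.44). Ccl3, a chemokine made by activated CD8 T cells, stood at 562, 746 and 873 CPM without acetate and 1231, 1092 and 1167 CPM with it (0.68 ± 0.16, adjusted p = 0.126). Its close relative Ccl4 averaged 1541 ± 237 CPM without acetate and 2311 ± 152 CPM with it (0.58 ± 0.14). Both were separate between groups. Ccl1, Ccl5 and Xcl1 overlapped between groups, at 0.13, 0.48 and 0.42.

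Among both the granzymes and the secretion genes, some members had separate groups with acetate higher and others overlapped. Of 24 tested (median 0.22), 9 were separate and higher (37.5%, against 9.9% of all genes). Only 1, Gzmm, was separate and lower (-0.39 ± 0.22), or 4.17% against 8.79% of all genes. Without d9_1mM replicate 1 the median was 0.43 and 3 passed, all higher, against 17 higher of all 13153 genes in that fit. Without any one of the other d9 libraries 0 passed. Besides Gzmb and Gzmc, Gzmf averaged 59.9 ± 19.0 CPM without acetate and 115 ± 10.3 CPM with it (0.95 ± 0.22) and Serpinb6b, a serpin that inhibits proteases, 222 ± 47.1 CPM without acetate and 386 ± 72.0 CPM with it (0.80 ± 0.17). Gzma, the other main granzyme, overlapped at 2302 ± 557 CPM without acetate and 2430.3 ± 349 CPM with it (0.08 ± 0.39). Prf1, encoding perforin, which opens the target membrane, stood at 518, 443 and 417 CPM without acetate and 638, 623 and 598 CPM with it (0.43 ± 0.20, adjusted p = 0.337). Rab27a, which docks granules at the membrane, averaged 153 ± 7.55 CPM without acetate and 213 ± 16.6 CPM with it (0.48 ± 0.10). Unc13d, Stxbp2, Lamp1 and Ctsw, other parts of granule release or content, had log2 changes of -0.11, -0.07, -0.04 and -0.19 with overlapping groups.

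Receptors and signalling genes for cytokines showed many small positive differences. Of 47 tested (median 0.25), 18 were separate and higher (38.3%, against 9.9% of all genes) and 0 separate and lower (8.79% of all genes), and 0 passed the test. Il7r, the receptor for the survival cytokine interleukin-7, was barely detected at 0.985, 1.14 and 0.913 CPM without acetate and 2.78, 1.65 and 3.54 CPM with it (1.39 ± 0.29, adjusted p = 0.102). Il10ra, a subunit of the receptor for interleukin-10, stood at 37.3, 33.5 and 27.6 CPM without acetate and 42.5, 71.7 and 84.1 CPM with it (1.01 ± 0.23), separate between groups and highest in acetate replicate 3. Socs3, a feedback inhibitor of this signalling, averaged 1.15 ± 0.138 CPM without acetate and 2.50 ± 0.648 CPM with it (1.12 ± 0.25). The interleukin-2 receptor genes Il2ra, Il2rb and Il2rg differed by 0.08, 0.21 and -0.14, with overlapping groups.

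The medians of 3 lists of signalling and transcription factor genes were positive and lower without d9_Acetate replicate 3. EGR, NR4A and MAPK feedback genes (29 tested) had a median of 0.36, or 0.25 without that library, and their library medians overlapped between groups. Egr3 stood at 6.18, 9.82 and 9.61 CPM without acetate and 19.9, 10.3 and 26.5 CPM with it (1.15 ± 0.30), with acetate replicate 2 close to the libraries without acetate. Rgs1, a regulator of G protein signalling, stood at 129, 81.5 and 83.8 CPM without acetate and 158, 176 and 174 CPM with it (0.79 ± 0.16, adjusted p = 0.0991). The 27 NF-kB genes had a median of 0.15, with 17 positive, or 0.06 without d9_Acetate replicate 3 and 0.09 without d9_1mM replicate 1. Among them the signalling protease gene Malt1 stood at 72.7, 74.2 and 65.0 CPM without acetate and 119, 109 and 165 CPM with it (0.89 ± 0.16, adjusted p = 0.0833), and Tnfaip3, the feedback inhibitor A20, at 296, 294 and 260.5 CPM without acetate and 383, 477 and 734 CPM with it (0.91 ± 0.25). AP-1, BATF, IRF and NFAT factors (30 tested) had a median of 0.16, which ran from 0.06 without d9_Acetate replicate 3 to 0.33 without d9_Acetate replicate 2. It was 0.10 without d9_1mM replicate 1 and 0.26 without d9_1mM replicate 2. Among them Irf8, a transcription factor of effector CD8 T cells, stood at 431, 448 and 469.8 CPM without acetate and 666, 1082 and 1372 CPM with it (1.21 ± 0.22), again highest in replicate 3.

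Effector and memory transcription factors (48 tested) had a median of 0.25, with 39 positive and 0 past the test. The median was 0.44 without d9_Acetate replicate 2 and 0.39 without d9_1mM replicate 2, and the library medians overlapped between groups. With the ribosomal share as covariate 5 passed higher (3.35% of all genes) and 4 lower (3.88%). With the surrogate variable 9 passed higher (4.64% of all genes) and 2 lower (4.57%). Without the pair of libraries 3 passed higher (1.18% of all genes) and 0 lower (0.464%). Id2, Klf6 and Myb passed higher in all 3 of these fits (121 of all 13182 genes) and 0 passed lower (56 of all genes). Tbx21, encoding the effector factor T-bet, stood at 26.5, 36.4 and 46.5 CPM without acetate and 64.4, 56.2 and 73.4 CPM with it (0.82 ± 0.22, adjusted p = 0.158). Eomes, its partner, and Tcf7, a factor of stem-like memory, overlapped at 0.24 ± 0.15 and 0.12 ± 0.33. Ets1 averaged 75.7 ± 3.35 CPM without acetate and 113 ± 20.1 CPM with it (0.58 ± 0.13). The median of 29 tested naive, memory and homing genes was 0.20, but 0.05 without d9_Acetate replicate 1, 0.10 without d9_1mM replicate 3 and 0.02 with no filter on low counts (35 genes). Among them Bcl2, which opposes apoptosis, stood at 51.6, 49.1 and 46.3 CPM without acetate and 83.1, 68.1 and 70.1 CPM with it (0.59 ± 0.11, adjusted p = 0.0833). Costimulatory and inhibitory receptors (37 tested, median 0.26) held 10 separate and higher (27%, against 9.9% of all genes) and 2 separate and lower (5.41%, against 8.79%). Slamf1 averaged 8.97 ± 1.35 CPM without acetate and 16.7 ± 1.41 CPM with it (0.89 ± 0.18) and Vsir, encoding the inhibitory receptor VISTA, 257 ± 22.9 CPM without acetate and 357 ± 36.2 CPM with it (0.47 ± 0.12). The inhibitory receptors Havcr2 and Lag3 overlapped (0.12 and 0.26), and Pdcd1 averaged 158 ± 19.3 CPM without acetate and 212 ± 31.0 CPM with it in separate groups (0.42 ± 0.18, adjusted p = 0.302).

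**Figure D4:**
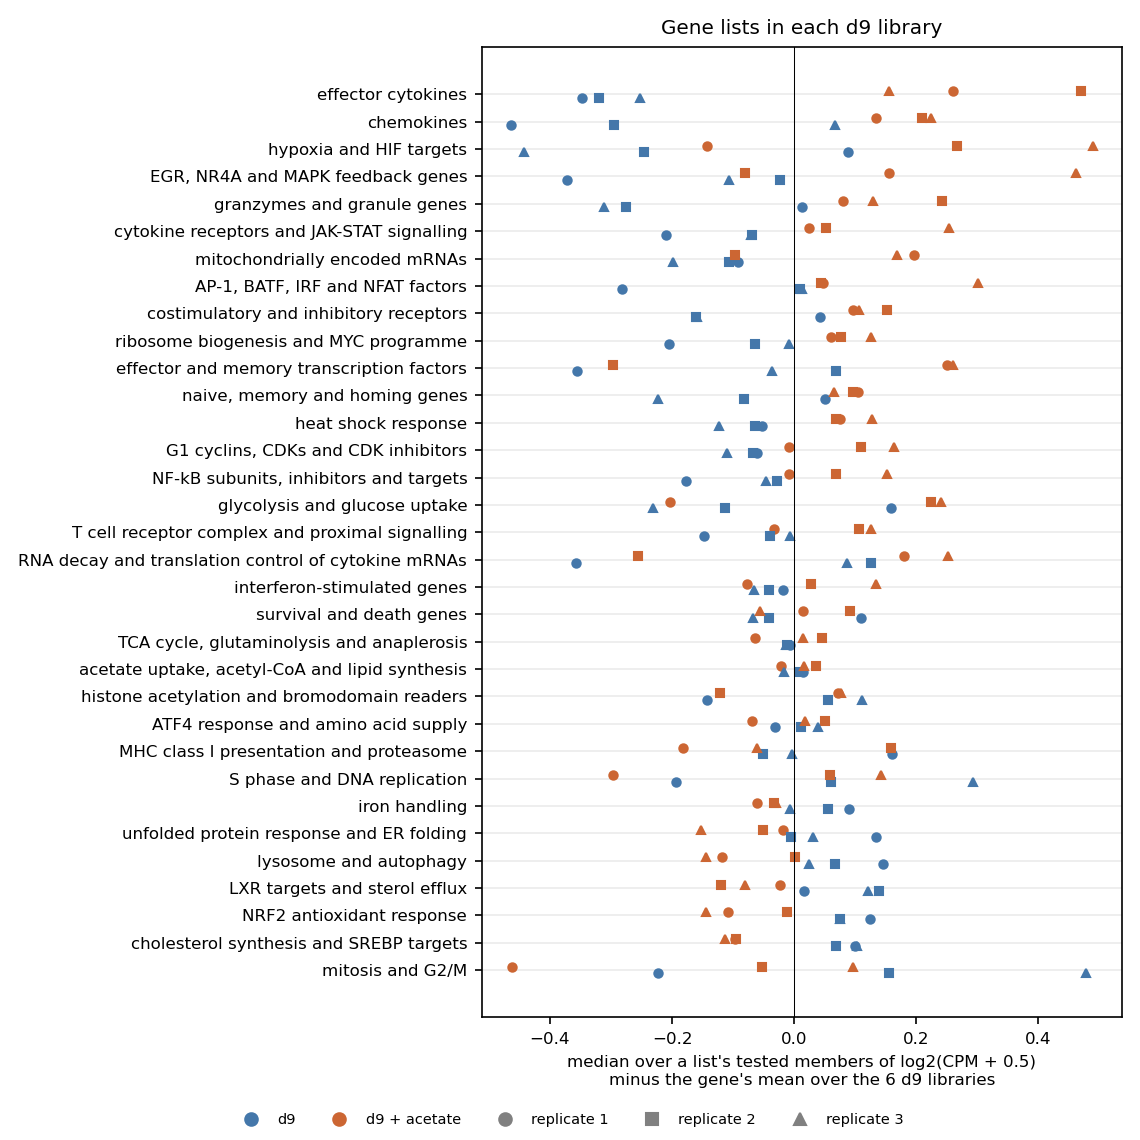
For each gene list and d9 library, the median over tested members of log2(CPM + 0.5) minus the gene's mean over the 6 d9 libraries, with libraries without acetate in blue and with acetate in orange and replicates by marker shape. Acetate libraries lie to the right for effector cytokines and to the left for cholesterol synthesis and SREBP targets, with no overlap in either.

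Genes that handle acetate itself showed no shared direction. Of 38 genes for acetate uptake, acetyl-CoA and lipid synthesis 32 were tested, with a median of -0.02 and 0 past the test. Acss2 stood at 25.5, 17.6 and 16.6 CPM without acetate and 15.8, 15.0 and 13.8 CPM with it (-0.42 ± 0.17, adjusted p = 0.276); the groups were separate and lower with acetate, and the gene overlaps Ggt7 and Gss on the other strand. Acss1 stood at 6.31, 6.35 and 4.48 CPM without acetate and 5.52, 5.54 and 5.07 CPM with it (-0.09 ± 0.18). Acly, which makes acetyl-CoA from citrate, was nearly equal at 318 ± 17.8 CPM without acetate and 314 ± 2.62 CPM with it (-0.02 ± 0.09). The transporter gene Slc16a1 stood at 148, 133 and 114 CPM without acetate and 154, 178 and 161 CPM with it (0.32 ± 0.14). Scd2, a desaturase of fatty acids, averaged 599 ± 57.9 CPM without acetate and 897 ± 185 CPM with it (0.58 ± 0.15, adjusted p = 0.142). The 37 tested writers, erasers and readers of histone acetylation had a median of -0.01. The acetyltransferase genes Ep300 and Crebbp differed by -0.10 and -0.11, and Sirt3, a mitochondrial deacetylase, by 0.46 ± 0.14. Both list medians changed sign under some alternatives.

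Sterol genes had a negative median. In the SREBP pathway, low sterol releases a transcription factor that turns on cholesterol synthesis, and Insig1 holds it back. Of 31 tested genes, 28 were negative (median -0.18), 10 were separate and lower (32.3%, against 8.79% of all genes) and 1, Ggps1, separate and higher (3.23%, against 9.9%). Insig1 stood at 51.8, 54.2 and 52.4 CPM without acetate and 37.5, 40.8 and 34.2 CPM with it (-0.49 ± 0.10, adjusted p = 0.0991). All acetate libraries were below all others. Ebp and Dhcr7, late enzymes of cholesterol synthesis, averaged 70.6 ± 3.95 CPM without acetate and 52.5 ± 2.95 CPM with it (-0.43 ± 0.10) and 17.2 ± 3.28 CPM without acetate and 11.9 ± 0.977 CPM with it (-0.54). Hmgcs1, an early enzyme of the pathway, overlapped between groups (-0.04). With the ribosomal share as covariate 7 passed, all lower (3.88% of all genes passed lower in that fit). Dhcr7 and Insig1 were among 3 of the 31 that passed lower in all 3 fits that deal with the pair (56 of all 13182 genes). The 12 tested LXR targets, which act when sterol is high, also had a negative median (-0.18).

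Lists for the oxidant response, lysosomes and the unfolded protein response had negative medians. NRF2 genes, which defend against oxidants, had a median of -0.17 over 28 tested, with 11 separate and lower (39.3%, against 8.79% of all genes), 0 separate and higher (9.9% of all genes) and 0 past the test. Prdx1, a peroxiredoxin, stood at 418, 327 and 336 CPM without acetate and 237, 317 and 197 CPM with it (-0.53 ± 0.17), Hmox1, heme oxygenase, at 191, 177 and 183 CPM without acetate and 154, 151 and 146 CPM with it (-0.29 ± 0.09), and Txnrd1, thioredoxin reductase, averaged 384 ± 36.0 CPM without acetate and 310.1 ± 23.01 CPM with it (-0.31 ± 0.11). The ferritin gene Fth1, an iron store, stood at 789.8, 893 and 974 CPM without acetate and 629, 585 and 659 CPM with it (-0.50 ± 0.13, adjusted p = 0.142); ferritin genes have many pseudogenes that can share reads. Of 35 tested lysosome and autophagy genes (median -0.17), 13 were separate and lower (37.1%, against 8.79% of all genes) and 1 separate and higher (2.86%, against 9.9%). Psap, a lysosomal sphingolipid activator, averaged 241 ± 16.5 CPM without acetate and 185 ± 11.7 CPM with it (-0.39 ± 0.10), and Sqstm1, the autophagy receptor p62, 3606 ± 35.8 CPM without acetate and 2968 ± 261 CPM with it (-0.28 ± 0.11). Unfolded protein response genes (29 tested) had a median of -0.10, which was -0.02 without d9_1mM replicate 1, -0.04 without d9_Acetate replicate 3 and -0.16 without d9_1mM replicate 2. Herpud1 averaged 793 ± 58.4 CPM without acetate and 639 ± 18.2 CPM with it (-0.31 ± 0.10), and Derl3, at a low level, 1.33 ± 0.130 CPM without acetate and 0.491 ± 0.0953 CPM with it (-1.43 ± 0.28, adjusted p = 0.0907).

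Hypoxia and glycolysis genes had positive medians with wide spread. The 27 tested HIF targets had a median of 0.52, but 5 were separate and higher (18.5%, against 9.9% of all genes) and 1 separate and lower (3.7%, against 8.79%), and the median was 0.37 without d9_Acetate replicate 3. Vegfa stood at 139.7, 116 and 98.4 CPM without acetate and 148, 168 and 238 CPM with it (0.65 ± 0.18), and Hk1, a hexokinase, at 137, 152 and 130.1 CPM without acetate and 149, 175 and 320.2 CPM with it (0.62 ± 0.23), with replicate 3 the highest in both. Glycolysis genes (28 tested) had a median of 0.21, or 0.09 without that library. Txnip, a glucose-responsive inhibitor of glucose uptake, overlapped at 347, 277 and 273 CPM without acetate and 338, 240.2 and 125 CPM with it (-0.35 ± 0.27). Heat shock genes (22 tested) were more even, with 20 positive (median 0.16). Hspa4, a chaperone of the HSP110 family, stood at 276, 274 and 272 CPM without acetate and 363, 363 and 373 CPM with it (0.42 ± 0.08, adjusted p = 0.0907), among the tightest differences.

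Growth genes and division genes differed in sign. Ribosome biogenesis genes (40 tested) had a median of 0.17 with 31 positive (77.5%, against 51% of all genes) and 10 separate and higher (25%, against 9.9%), among them the nucleolar gene Wdr43 (96.3 ± 4.44 CPM without acetate and 130.1 ± 11.3 CPM with it, 0.43 ± 0.10). Myc, a driver of that programme, overlapped between groups at 161, 333 and 358 CPM without acetate and 442, 298 and 592 CPM with it (0.64 ± 0.31). Mitosis genes (36 tested) had a median of -0.31 with 33 negative, but 4 were separate and lower (11.1%, near the 8.79% of all genes) and 0 passed. Hmmr stood at 5.77, 7.62 and 8.52 CPM without acetate and 5.01, 5.08 and 5.41 CPM with it (-0.50 ± 0.15, adjusted p = 0.179). It was the only 1 of the 36 to pass in the 3 fits that deal with the pair. Of all genes, 3.88% passed lower with the ribosomal share, 4.57% with the surrogate variable and 0.464% without the pair. Without d9_1mM replicate 3 the mitosis median was -0.13, without d9_Acetate replicate 1 -0.17 and without the pair of libraries -0.46.

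The same 4 genes were also higher with acetate at d5, after 1 day of restriction, in a comparison of 2 libraries with 2 that shares no library with d9 (201 genes called at d5, 1.52%). Il10 had a d5 log2 change of 2.72 ± 0.29, Csf2 0.89 ± 0.14, Gm36723 2.09 ± 0.26 and Gm17767 1.47 ± 0.23. All passed the edgeR test there (adjusted p = 0.00714, 0.021, 0.0092 and 0.0208). The 2 largest of these changes start from low levels at d5. Il10 stood at 1.16 and 1.17 CPM without acetate and 7.11 and 8.31 CPM with it. Gm36723 stood at 0.772 and 0.584 CPM without acetate and 3.19 and 2.63 CPM with it. Mean d5 levels without and with acetate were 224 and 417 CPM for Csf2 and 5.12 and 14.2 CPM for Gm17767. Both days were fitted together with a shared estimate of the spread, so the d5 p-values are not independent of the d9 libraries. The difference between days, d9 minus d5, was tested as an interaction and 0 genes passed by edgeR, with 1015 at an unadjusted p under 0.05 and 102 called by DESeq2. For Il10 the difference was -0.82 ± 0.34 (adjusted p = 0.615) and for Gm17767 -0.02 ± 0.29. Several genes pointed in opposite directions at the 2 days without passing. Vsir was 0.47 at d9 and -0.74 at d5, a difference of 1.21 ± 0.18 (adjusted p = 0.0706). Mgll was -0.72 and 0.71, a difference of -1.43 ± 0.22 (adjusted p = 0.078). For Cd27 the difference was 1.26 ± 0.22 and for Myb 1.56 ± 0.29 (adjusted p = 0.134 for both), with negative values at d5. Bcl2 and Ets1 were likewise positive at d9 and negative at d5. Among lists, the EGR, NR4A and MAPK feedback genes had a median of 0.36 at d9 and -0.24 at d5, and the effector and memory transcription factors 0.25 and -0.28. Cytokines were positive at both (0.63 and 0.44) and sterol genes negative at both (-0.18 and -0.10). The list differences were not tested.

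**Figure D5:**
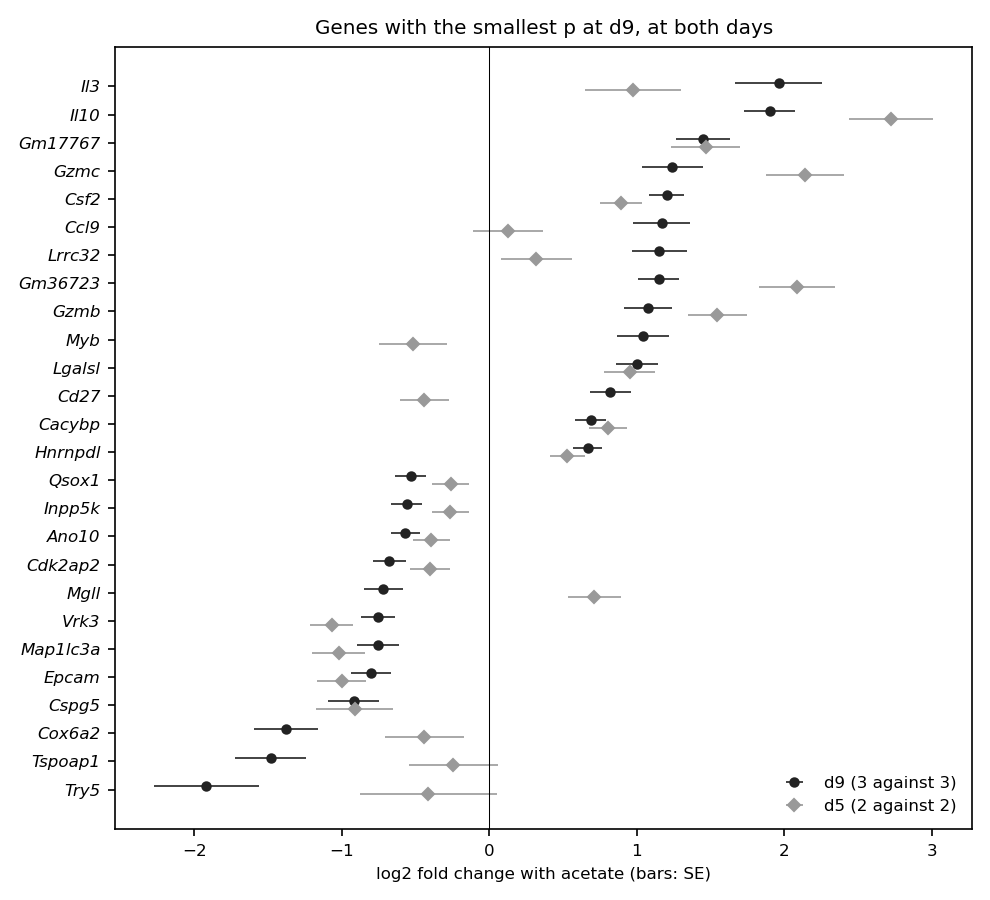
Log2 fold change with acetate at d9 (black circles, 3 libraries against 3) and d5 (grey diamonds, 2 against 2), with bars of 1 SE, for the genes past the threshold and the 12 protein-coding genes of smallest p in each direction at d9. Il10, Csf2, Gm17767 and Gm36723 lie right of 0 at both days, while Myb, Cd27 and Mgll lie on opposite sides.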

How the data were processed

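Each sample has 1 deposited file of unnormalised read counts by gene, from stranded polyadenylated mRNA libraries sequenced on an Illumina HiSeq, per the labels' protocols. The submitters' processing notes list STAR, featureCounts, DESeq2, deepTools and GRCm38, without roles. Tool versions, the annotation used for counting and its strand mode were not given in the sources used here. Of 53465 genes, 53274 matched GENCODE M21, and the other 191 took no more than 0.02% of any library. Depth was 16.59 to 24.66 M counts over the 10 libraries. A 25 mM glucose arm was not analysed here.

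Counts were TMM-scaled, filtered with filterByExpr (13182 genes kept) and fitted with the edgeR quasi-likelihood model on 4 group means (all 10 libraries, 6 residual degrees of freedom, R 4.3.3, edgeR 4.0.16), with Benjamini-Hochberg adjustment at 0.05. The contrasts were acetate at d9 and the difference of acetate effects, d9 minus d5. Alternatives were DESeq2 1.42.0, limma-voom 3.58.1, other scaling and filters, a minimum change of 1.2-fold, covariates (sva 3.50.0), length and GC trends removed, a replicate block and libraries left out. Scripts were tested on simulated data. Named genes were those past the threshold, the 12 protein-coding genes of smallest p and the 8 of largest change in each direction (mean log2 CPM of at least 1), up to 3 per list, and a fixed set of cytokine, granule, acetate and sterol genes. Results of a few genes that the rule named are not reported here. Other list members named as contrasts were chosen after their values were seen. The members, lists, rule and alternatives were chosen with earlier results of these data known. Groups of 2 or 3 samples were too small for the outlier test.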

Additional observations from a re-analysis of the deposited data

How the results depend on the processing

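At d9, 4 genes passed in the fit as reported, and 3 to 6 passed with DESeq2 size factors, library size only, a filter of 2 CPM in 2 samples, limma-voom, only the d9 libraries or a minimum change of 1.2-fold. The count was 197 with no filter, 335 with the DESeq2 Wald test, 953 with the ribosomal protein share as covariate, 1214 with 1 surrogate variable, 213 without d9_1mM replicate 1 and d9_Acetate replicate 2 together and 79 with length and GC trends removed. Leaving out each library gave 0 to 18: 18 without d9_1mM replicate 1, 2 without d9_1mM replicate 2, 0 without d9_1mM replicate 3 (1314 at an unadjusted p under 0.05) and 3 to 5 for the acetate libraries. With a replicate block 0 passed (1583 at an unadjusted p under 0.05). Same-numbered libraries had deviations correlated at -0.139, -0.392 and 0.329, and the pair that stood apart, d9_1mM replicate 1 and d9_Acetate replicate 2, at 0.509. Deviations within a group sum to 0 and largely follow that pair, so these values cannot show whether the numbers mark shared cultures or mice. The labels do not say what the replicate numbers mean. The difference between days gave 0 calls in the fit as reported, 99 with no filter, 102 with DESeq2, 35 with the ribosomal share, 134 with 1 surrogate variable, 255 without the pair of libraries, 22 with length and GC trends removed, and 0 to 1 when each library was left out, 1 each without d9_1mM replicate 1 and without d9_Acetate replicate 3; 0 passed with the replicate block. The cause of these shifts was not tested. The list medians that changed sign under at least 1 alternative were those of acetyl-CoA, histone acetylation, TCA cycle, ATF4, MHC class I, survival and S phase genes. With 3 libraries a group, small changes of low genes were not detectable.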

Other observations

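Classes of genes outside the lists also differed in how they leaned at d9. Of 11435 tested protein-coding genes, 51.8% had a positive log2 change with acetate, against 56.7% of 224 long intergenic noncoding genes, 39.9% of 228 antisense genes and 37.2% of 664 processed pseudogenes. Of the 85 tested cytosolic ribosomal protein genes 15 were positive, with a median of -0.08 and 0 past the test. The mitochondrially encoded mRNAs (8 tested) were all positive, with a median of 0.22, but only 1 was separate and higher (12.5%, near the 9.9% of all genes). Their library medians overlapped between groups. Ribosomal protein genes took a larger share of the counts in d9_1mM replicate 1 and d9_Acetate replicate 2 than in the other d9 libraries. The part of library composition in these values was not tested.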
